A study of Mus musculus with 8 samples.

Results

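Metallothioneins 1 and 2 are small, cysteine-rich proteins that bind zinc, copper and cadmium, and their genes Mt1 (ENSMUSG00000031765) and Mt2 (ENSMUSG00000031762) were followed here through heat shock in 2 fractions of mouse fibroblasts. These 2 genes were chosen by their identifiers and not by their values, though with earlier results of these data known. They are among the 28785 genes listed in at least 1 of 4 RNA-seq libraries. As background, cells hold a part of their metal in such proteins, and both genes are classical stress genes. Free zinc activates the transcription factor MTF1, which binds short metal response elements near the genes, and oxidants and glucocorticoids also raise their RNA. Both genes are active in most tissues, fibroblasts included, while the other members of the family, Mt3 and Mt4, are known mainly from brain and from stratified epithelium.

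The libraries came from mouse embryonic fibroblasts, cultured connective tissue cells, with the genotype TSC2+/+ and of the strain C57BL/6J. Control cells had no heat shock, and the treated cells (labelled PostHS) were held at 42 °C for 1 h and then given 3 h of recovery at 37 °C. From each condition a cytoplasmic fraction and a chromatin pellet were sequenced, which gave 1 library for each of 4 groups, so no difference has a replicate check and no test was made. All libraries were from wild-type cells, and 4 further libraries of the series, made for RNA methylation on chromatin, were not analysed here. Fibroblast markers were not analysed here either, because the files give identifiers with no gene names.

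The libraries held 8292312 to 19536459 reads, and 16818 to 26129 genes were listed in each. The values are RPKM, reads scaled to the length of the gene and to the total of the library. Because each value is a whole multiple of what 1 read is worth, the reads behind it could be recovered, and all intervals below are exact 95% intervals on those reads (Poisson for a level, Clopper-Pearson for a ratio). They cover counting error only, since PCR copies of a molecule cannot be recognised without molecular identifiers and the spread between cultures is unknown. In such bulk libraries, fewer cells with an RNA and less of it per cell cannot be told apart.

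Both genes lie on the forward strand of mouse chromosome 8 in build GRCm38.p6, in the order Mt4, Mt3, Mt2, Mt1 among the family. RefSeq places Mt2 at chr8:94172618-94173567, a length of 950 bases, and Mt1 at chr8:94178883-94180327, a length of 1445 bases, with 5315 bases between them. Gene lengths recovered from the RPKM values were 950 bases for Mt2, equal to its whole RefSeq length with introns, and 1237 bases for Mt1, which is shorter than its RefSeq entry. The RPKM of Mt2 is therefore relative to a gene span that includes introns. For Mt1 neither file nor reference shows which bases the 1237 cover, and its name rests on the identifier alone. How reads that match both genes, or a copy elsewhere, were counted is not given in the sources used here, so the division of reads between Mt1 and Mt2 is uncertain to that extent.

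A stretch around an annotated start of each gene is shown because MTF1 is known to act on both genes. The capitals mark each match to the core of the metal response element (TGCACNC or TGCGCNC, on either strand). Each runs from 250 bases before to 30 bases after a RefSeq start, on the forward strand of GRCm38.p6, at chr8:94178839-94179118 for Mt1 and at chr8:94172368-94172647 for Mt2. The start used for Mt1 lies inside its RefSeq entry, which begins further upstream at chr8:94178883. Most of the Mt1 stretch, with all its marked matches, therefore lies within that entry, unlike the Mt2 stretch.
Mt1: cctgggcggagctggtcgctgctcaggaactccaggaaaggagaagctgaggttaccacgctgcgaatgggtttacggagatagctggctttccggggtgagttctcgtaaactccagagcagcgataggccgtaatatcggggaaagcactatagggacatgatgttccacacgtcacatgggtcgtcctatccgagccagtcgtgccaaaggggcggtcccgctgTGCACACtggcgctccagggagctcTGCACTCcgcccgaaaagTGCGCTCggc
Mt2: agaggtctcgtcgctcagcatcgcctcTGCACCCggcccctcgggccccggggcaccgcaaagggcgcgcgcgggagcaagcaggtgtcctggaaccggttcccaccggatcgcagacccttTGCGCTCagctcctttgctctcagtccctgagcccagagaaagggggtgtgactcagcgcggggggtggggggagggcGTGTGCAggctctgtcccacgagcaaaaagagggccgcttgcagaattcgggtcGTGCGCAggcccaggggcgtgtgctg

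The Mt1 window held 3 core matches and the Mt2 window 4, searched from 250 bases before to 50 bases after the start. Among 32851 RefSeq windows of the same 300 bases, 25.7% held at least 1 match, 1.97% held 3 or more and 0.517% held 4 or more. Mt3 and Mt4 had 1 match each. All 3 Mt1 matches read on the forward strand, with their first bases at -23, 3 and 21. These count from the RefSeq start used, chr8:94179089, as base 1. Whether Mt1 RNA in these cells began at that start was not examined, so the positions are relative to the annotation only. The first bases of the Mt2 matches ran from -223 to 5, with 2 on each strand. A heat shock element, searched as GAANNTTC or TTCNNGAA, was in neither window, against 15.1% of all windows. Neither window held the glucocorticoid half-site AGAACA (19.0% of all windows) or the E-box CACGTG bound by USF factors (7.15%). The core of the antioxidant response element, TGACNNNGC, matched once in the Mt2 window and not in the Mt1 window, with 12.4% of all windows holding it. Matches describe these letters in these windows and not the binding of any factor, and other start sites of the genes were not examined. The Mt1 window ended at chr8:94179138, and the bases of the gene beyond it were not searched. A count or an absence that differs between Mt1 and Mt2 therefore depends on where the windows lie, and is not shown for the whole promoters.

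**Figure D1:**
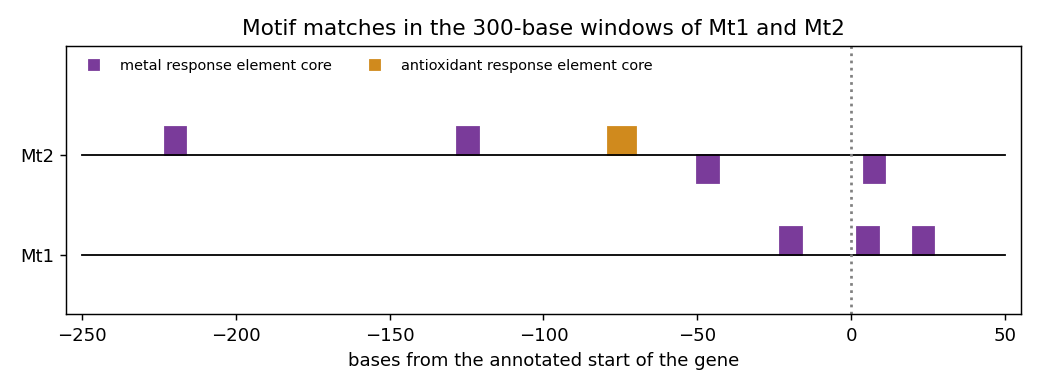
Position of motif matches in the 300-base windows of Mt1 and Mt2, in bases from the annotated start; boxes above a line are on the forward strand and boxes below it on the reverse strand. The 3 Mt1 matches to the metal response element core lie near the annotated start used, and the 4 of Mt2 are spread over the window.

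Both genes were measured in all 4 libraries, at low read numbers. Mt1 had 3.57 RPKM in chromatin without heat shock (interval 2.83 to 4.43, 81 reads) and 6.91 after it (5.90 to 8.04, 167 reads). In cytoplasm it had 10.8 RPKM (8.90 to 13.0, 111 reads) and 10.3 (8.69 to 12.2, 142 reads). On this deposited scale Mt1 was thus lowest in unstressed chromatin, intermediate in chromatin after heat shock and highest in both cytoplasmic libraries, whose intervals overlapped. Mt2 had 2.92 RPKM in chromatin without heat shock (2.18 to 3.84, 51 reads) and 3.50 after it (2.70 to 4.46, 65 reads). In cytoplasm Mt2 had 6.60 RPKM without heat shock (4.93 to 8.66, 52 reads) and 4.35 after it (3.18 to 5.80, 46 reads). The order of the 4 libraries was the same for both genes, but for Mt2 the intervals of each pair of neighbours in that order overlapped.

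**Figure D2:**
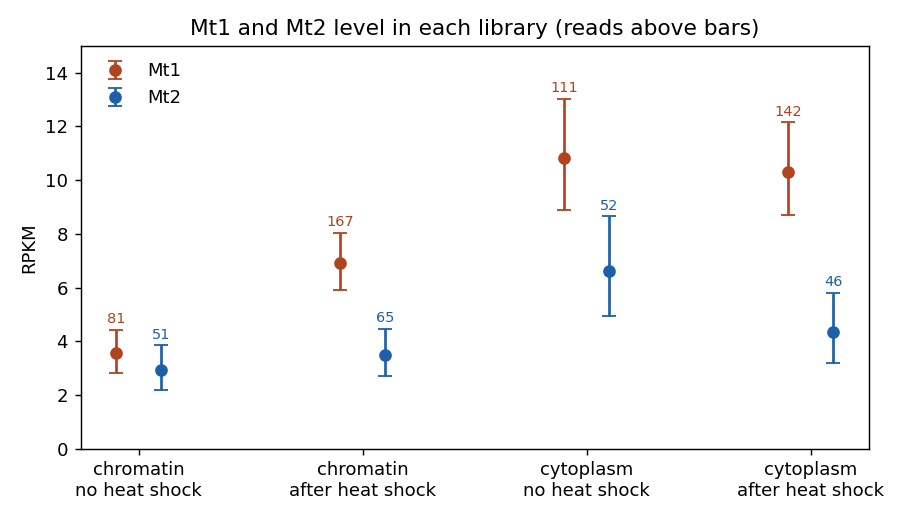
RPKM of Mt1 and Mt2 in each of the 4 libraries, with exact 95% Poisson intervals and the recovered reads printed above them. Mt1 lies between 3.57 and 10.8 RPKM and above Mt2 in every library.

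Among the 4688 genes kept for comparison, whose RPKM averaged 1 or more across the 4 libraries, Mt1 stood above 70.7% in unstressed chromatin, 85.0% in chromatin after heat shock, and 91.4% and 92.2% in cytoplasm without and after heat shock. Mt2 stood above 61.6%, 64.8%, 87.9% and 85.2% of the kept genes in the same libraries. Both members passed this filter with at least 2.92 RPKM in every library, so neither was kept through 1 group alone. Both are short, and 381 kept genes had a recovered span from 475 bases, which is the shorter member's divided by 2, to 2474 bases, the longer one's times 2. Within those genes of similar span Mt1 ranked from 74 to 100 from the top and Mt2 from 118 to 159, so both stood above the middle of them in each library.

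The first question was whether their RNA on chromatin, which includes RNA being made, differed after heat shock and recovery. Mt1 RNA was 1.94-fold of the unstressed level (1.48 to 2.56), and the interval did not reach 1. Mt2 RNA was 1.20-fold (0.818 to 1.76), a difference that was not detectable at this depth. On the scale used for counting, the log2 ratio of RPKM + 1, Mt1 was at 0.79 and Mt2 at 0.20, so neither was at least 2-fold higher or lower. Over 4635 genes with a read in both libraries, 10.4% passed 2-fold upward and 4.66% downward, and the median log2 ratio was 0.12. Mt1 exceeded 85.6% of these genes and Mt2 55.8%. Genes of similar span stood higher as a group: of 374, 20.9% were at least 2-fold higher and 3.74% lower, with a median of 0.38. Mt1 exceeded 72.7% of those and Mt2 38.5%. By its point value Mt2 was thus below the median gene of similar span, but that side was within counting error.

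RPKM is relative to each library's total, and the 10 genes with the highest mean RPKM took 16.1% of chromatin reads without and 25.7% after heat shock. With their reads left out of the totals, Mt1 was 2.19-fold (1.67 to 2.89) and Mt2 1.35-fold (0.924 to 1.99). With the median plain ratio of kept genes set to 1 they were 1.72-fold (1.31 to 2.28) and 1.07-fold (0.727 to 1.57), and with both libraries brought to the same RPKM sum 1.24-fold (0.947 to 1.64) and 0.768-fold (0.524 to 1.13). Mt1 thus lay above 1 on each of the 4 scales, with an interval that reached 1 on the last, while Mt2 turned from above to below 1 on that scale. The share of higher genes among all those past 2-fold was 69.0% as deposited, 57.6% with the median log2 ratio at 0 and 26.1% at the same RPKM sum.

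In cytoplasm the corresponding question was whether the finished RNA differed. Mt1 was at 0.953-fold after heat shock (0.738 to 1.23), a difference not detectable at this depth. Mt2 was at 0.659-fold (0.433 to 0.999), with an interval that ended just below 1. The log2 ratios of RPKM + 1 were -0.06 and -0.51, so no member was past 2-fold, beside 3.4% of 4505 genes at least 2-fold higher and 2.44% lower. Their median was -0.25, and Mt1 exceeded 78.6% of the genes and Mt2 15.0%. Among 364 genes of similar span 11% were higher and 8.52% lower with the same median of -0.25, and there Mt1 exceeded 65.4% and Mt2 27.5%. By their point values the neighbouring genes stood on opposite sides of the median gene in cytoplasm. For Mt2 that side was within counting error: with the median plain ratio set to 1 its interval was 0.626 to 1.44.

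The scale again set the sign of small differences. With the median plain ratio set to 1, Mt1 was 1.38-fold (1.07 to 1.78) and Mt2 0.952-fold (0.626 to 1.44). With the 10 highest genes left out they were 1.05-fold (0.815 to 1.36) and 0.727-fold (0.478 to 1.10), and at the same RPKM sum 0.814-fold (0.630 to 1.05) and 0.563-fold (0.370 to 0.853). Mt2 was below 1 on all 4 scales, but its interval stayed below 1 on the deposited scale and at the same RPKM sum alone, and Mt1 changed sides. Higher genes made up 58.2% of those past 2-fold as deposited, 73.6% with the median log2 ratio at 0 and 47.9% at the same RPKM sum. Without the added 1 RPKM the balance turned, with 272 genes higher and 706 lower, or 27.8% higher, and a median log2 ratio of -0.53.

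**Figure D3:**
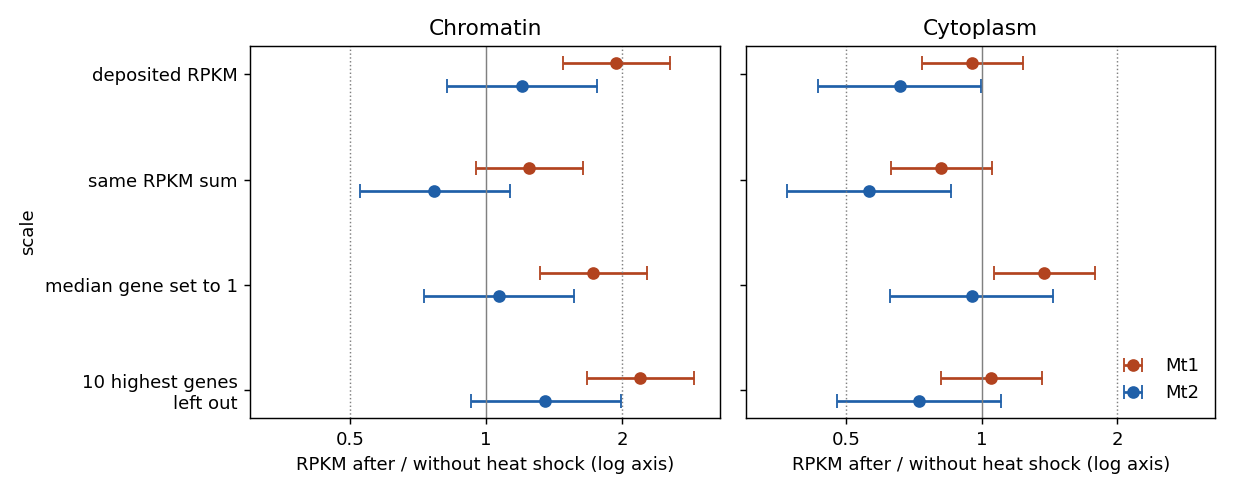
RPKM after heat shock divided by RPKM without it for Mt1 and Mt2 in chromatin and cytoplasm (log axis) on 4 scales, with exact 95% intervals on reads; the solid line marks 1 and dotted lines mark 0.5 and 2. Mt1 in chromatin is above 1 on every scale, from 1.24 to 2.19, and Mt2 in cytoplasm is below 1 on every scale, from 0.563 to 0.952.

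The heat shock difference was then set against itself in both fractions. Chromatin fold over cytoplasmic fold was 2.03 for Mt1 (1.39 to 2.97) and 1.82 for Mt2 (1.02 to 3.23), from the exact conditional interval of the 4 read numbers. On the log2 scale of RPKM + 1 the difference was 0.86 and 0.71. Both values were above the median of 0.37 over the 4473 genes with reads in all 4 libraries, and they exceeded 78.4% and 71.2% of those genes. For 357 genes of similar span the median was 0.72, so Mt1 and Mt2 were near the middle of genes as short as themselves, above 58.5% and 48.5% of them. A ratio above 1 in chromatin together with one below 1 in cytoplasm, as both members showed on the deposited scale, was seen in 46.5% of all these genes and in 52.7% of those of similar span. The size depended on the scale, with 1.53 (1.04 to 2.23) for Mt1 and 1.37 (0.768 to 2.43) for Mt2 at the same RPKM sum. It was 1.25 (0.857 to 1.83) and 1.12 (0.630 to 1.99) with the median gene of each fraction at 1. With the 10 highest genes left out it was 2.08 (1.42 to 3.05) and 1.86 (1.05 to 3.31).

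**Figure D4:**
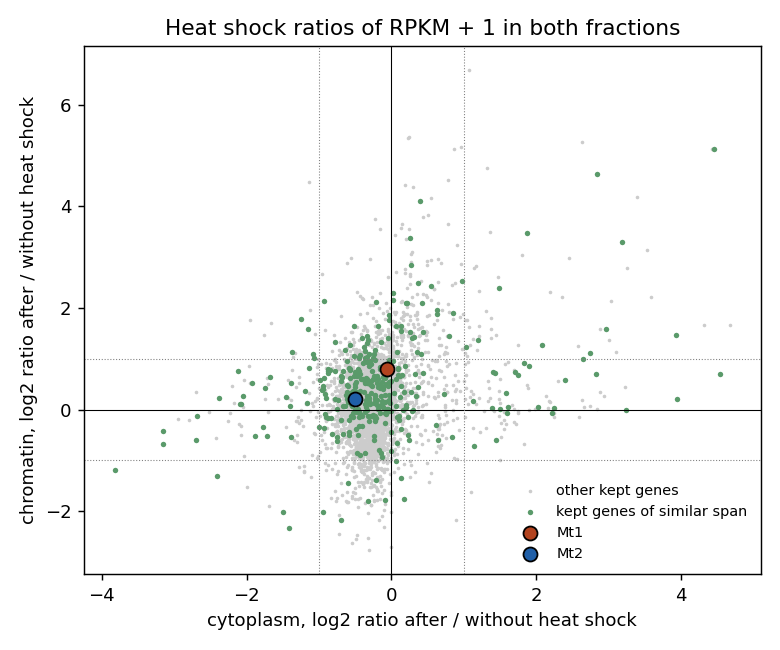
Log2 ratio of RPKM + 1 after heat shock to that without it, in cytoplasm (x axis) and chromatin (y axis), for each kept gene with reads in all 4 libraries; genes of similar span to the members are in green and dotted lines mark 2-fold. Mt1 (-0.06, 0.79) and Mt2 (-0.51, 0.20) lie inside the 2-fold lines, within the cloud of genes of similar span.

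How the RNA was divided between chromatin and cytoplasm was compared within each condition. Without heat shock Mt1 was 3.03-fold lower in chromatin than in cytoplasm (2.26 to 4.09) and Mt2 2.26-fold lower (1.50 to 3.39) on the deposited scale, but at the same RPKM sum both were above 1, at 1.05-fold (0.776 to 1.41) and 1.41-fold (0.937 to 2.11). The log2 ratios of RPKM + 1 were -1.37 and -0.95, so 1 of the 2 genes, Mt1, was at least 2-fold lower in chromatin. That call rests on the value of 1 RPKM added before the ratio: with 5 RPKM added Mt1 was at -0.89 and neither gene passed, and with none added the genes were at -1.60 and -1.18 and both passed. With 1 RPKM added the mark was passed by 11.7% of 4512 genes, while 32.4% were at least 2-fold higher in chromatin. For 361 genes of similar span the shares were 43.5% lower and 18.6% higher, so a place on the cytoplasmic side was common among short genes. Mt1 exceeded 8.22% of all genes and 33.5% of those of similar span, and Mt2 12.1% and 44.0%.

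After heat shock the fractions were closer for both genes on the deposited scale, but further apart at the same RPKM sum. As deposited, Mt1 was 1.49-fold lower in chromatin (1.18 to 1.88) and Mt2 1.24-fold lower (0.832 to 1.84), again with the opposite direction at the same RPKM sum, 1.60-fold (1.27 to 2.01) and 1.92-fold (1.30 to 2.86) higher. With the median plain ratio set to 1, Mt1 was 5.94-fold lower in chromatin without heat shock (4.42 to 8.01) and 4.68-fold lower after it (3.71 to 5.88). Mt2 was 4.42-fold lower (2.94 to 6.63) and 3.89-fold lower (2.61 to 5.77) on that scale, so for each gene the intervals of the 2 conditions overlapped there. As deposited, neither passed 2-fold, with log2 ratios of RPKM + 1 of -0.52 and -0.25. Beside them, 6.93% of 4575 genes were lower and 45.8% higher in chromatin. Of 375 genes of similar span 24.5% were lower and 28.5% higher. Mt1 exceeded 11.1% of all genes and Mt2 14.5%, and both were near the middle of genes of similar span, above 41.1% and 47.7%. That call depends on the scale: with the median log2 ratio at 0 both genes passed 2-fold after heat shock, at -1.43 and -1.17. With the 10 highest genes left out of the totals Mt1 passed, at -1.25, and Mt2 did not, at -0.92. On that last scale both genes were further toward cytoplasm than as deposited. They were at 0.184-fold and 0.248-fold without heat shock and 0.384-fold and 0.462-fold after it. In cytoplasm those 10 genes took 53.0% of the reads of unstressed cells and 57.4% after heat shock. The 1 gene with the most reads in each library took 44.6% and 47.4% in cytoplasm, against 8.01% and 14.0% in chromatin. The deposited cytoplasmic scale thus depends largely on 1 gene. The share of genes higher in chromatin among those past 2-fold was 73.4% without and 86.9% after heat shock as deposited, 95.2% and 97.2% at the same RPKM sum, 37.9% and 33.4% with the median log2 ratio at 0, and 43.5% and 66.9% without the 10 highest genes.

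The proportion of Mt1 to Mt2 does not depend on the library scale. Per length, Mt1 RNA was 1.22 times Mt2 RNA in chromatin without heat shock (0.849 to 1.77) and 1.97 times after it (1.47 to 2.67). In cytoplasm the ratio was 1.64 without heat shock (1.17 to 2.33) and 2.37 after it (1.69 to 3.38). Mt1 was thus above Mt2 per length in all 4 libraries, with an interval that reached 1 in unstressed chromatin. These values rest on the recovered lengths. Taken on reads, the ratio was 1.59 and 2.57 in chromatin and 2.13 and 3.09 in cytoplasm, without and after heat shock. The change of this ratio after heat shock was 1.62-fold in chromatin (1.00 to 2.60) and 1.45-fold in cytoplasm (0.881 to 2.37), so both libraries made after heat shock had the higher proportion, at the edge of counting error in chromatin and within it in cytoplasm. Between fractions the ratio in chromatin was 0.744 of that in cytoplasm without heat shock (0.447 to 1.24) and 0.832 after it (0.523 to 1.32), differences not detectable at this depth.

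**Figure D5:**
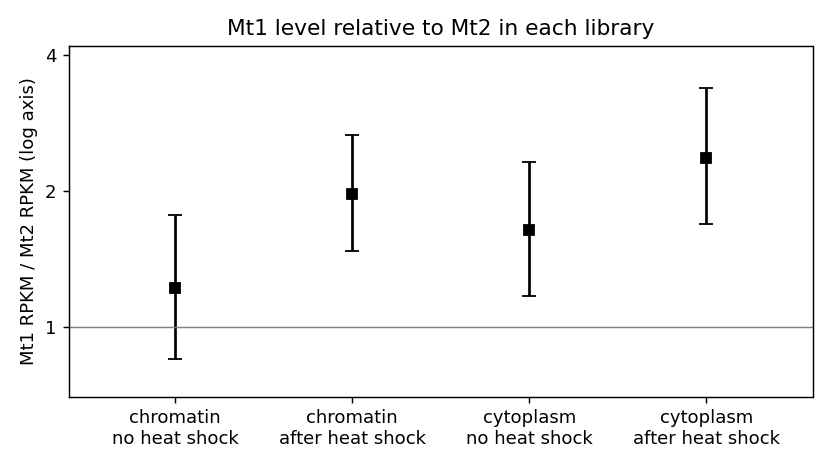
Mt1 RPKM divided by Mt2 RPKM in each library (log axis), with exact 95% Clopper-Pearson intervals on reads. The ratio is 1.22 and 1.97 in chromatin and 1.64 and 2.37 in cytoplasm, without and after heat shock.

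The profile of each gene over the 4 libraries was compared with all others by the Euclidean distance between log2(RPKM + 1) values centred on their mean. Mt2 was number 205 in nearness to Mt1 among 4472 genes, at a distance of 0.63 where the median gene was at 1.91. In the other direction Mt1 was number 454 in nearness to Mt2, with a median of 1.58. The gene nearest to Mt1 was ENSMUSG00000027133, of 1344 bases, at a distance of 0.14, with 1.26 and 2.51 RPKM in chromatin and 4.94 and 4.48 in cytoplasm, without and after heat shock. Nearest to Mt2 was ENSMUSG00000073616, of 4841 bases, at 0.043, with 0.652 and 0.825 RPKM in chromatin and 2.17 and 1.24 in cytoplasm. The 5 genes nearest to Mt1 had spans of 616 to 3221 bases and those nearest to Mt2 spans of 2722 to 4841 bases. These rankings rest on 4 libraries and on all kept genes with a read in each of them. Even among the 5 genes nearest to each member, read numbers went down to 14 in a library, so counting error enters each distance.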

How the data were processed

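Groups were taken from the sample titles, 1 library each. The authors deposited 1 RPKM value per Ensembl gene and library, and files list only genes with a read. Cutadapt, STAR and the build GRCm38 are named in the submitters' processing notes. For the read counter, annotation release and strand handling, nothing is given in the sources used here. Per the labels' protocols, RNA fragments of 40 to 60 nt were cut from a gel.

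Library totals were recovered as common divisors of reciprocal RPKM values (tolerance 0.002, 20000 random pairs), and reads and span per gene as the smallest whole numbers that gave all values. Recovered reads summed to 98.4% to 99.7% of the totals. Recovery and intervals were also run on simulated Poisson counts built with the recovered spans. Such a run checks the calculation only, and not whether real libraries spread in that way.

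Ratios of RPKM + 1 were compared over genes with a mean of at least 1 RPKM and a read in both libraries. The members, lists and motifs were chosen with earlier results of these data known. The rule for named genes took both members, fixed lists by symbol and the 5 genes nearest in profile. Those lists were not analysed, because neither files nor reference pair identifiers with symbols, and of the nearest genes 1 per member is given by identifier. Promoter sequences are RefSeq's for GRCm38.p6; both members matched by symbol. Alternatives were other pseudocounts, filters and library scales. Python 3.11.15, numpy 2.4.6, pandas 2.3.3, scipy 1.17.1 and matplotlib 3.10.9 were used.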

Additional observations from a re-analysis of the deposited data

Results flagged for a closer look

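Both genes had opposite directions in the 2 fractions after heat shock, on the deposited scale. The log2 ratio of RPKM + 1 was 0.79 in chromatin and -0.06 in cytoplasm for Mt1, a difference of 0.86. For Mt2 it was 0.20 and -0.51, a difference of 0.71. With 1 library per group neither difference was tested. For each gene 1 of the 2 directions was not detectable at this depth: the plain fold of Mt1 in cytoplasm was 0.953 (0.738 to 1.23) and that of Mt2 in chromatin 1.20 (0.818 to 1.76). With the median gene set to 1, Mt1 was above 1 in both fractions, at 1.72-fold and 1.38-fold. The same pair of directions was seen in 46.5% of the 4473 genes with reads in all 4 libraries and in 52.7% of those of similar span, whose median difference was 0.72.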

How the results depend on the processing

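No paired analysis was possible because each group holds 1 library. Values here are log2 ratios of RPKM + 1 unless another setting is named. Of 50 alternative values for Mt1 and Mt2, 37 stayed within the counting interval of the plain fold once that interval was shifted by the gap between the log2 fold and the log2 ratio of RPKM + 1. These include some of the other sign: Mt1 in cytoplasm at 0.19 (median at 0) and 0.068 (10 highest genes left out), and Mt2 in chromatin at -0.33 (same RPKM sum). The 4 ratios of Mt1 to Mt2 taken on reads stayed within their intervals. Reads and RPKM differ here by the same length factor in every library, so this shows only that the intervals are wider than that factor. Mt1 in chromatin against cytoplasm without heat shock turned from -1.37 to 0.058 at the same RPKM sum. On that scale Mt1 after against without heat shock in chromatin was 0.28, Mt2 in chromatin against cytoplasm 0.42 without heat shock, and Mt1 and Mt2 0.60 and 0.74 after it. With the median at 0, chromatin against cytoplasm was -1.95 for Mt1 without heat shock, and -1.43 and -1.17 for Mt1 and Mt2 after it. With the 10 highest genes left out it was -2.10 and -1.64 without heat shock and -1.25 and -0.92 after it. A pseudocount of 5 gave -0.89 for Mt1 without heat shock, which ends its 2-fold call.

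Counts of genes past 2-fold, higher then lower, were 481 and 216 for heat shock in chromatin, 153 and 110 for heat shock in cytoplasm, and 1460 and 529 (no heat shock) and 2096 and 317 (after it) for chromatin against cytoplasm. In the same order, a pseudocount of 5 gave 170 and 52, 68 and 50, 244 and 288, and 325 and 167. A mean of at least 5 RPKM gave 205 and 48, 65 and 66, 206 and 323, and 266 and 184. No pseudocount gave 781 and 453 in chromatin, 272 and 706 in cytoplasm, where the balance turned, and 2226 higher in chromatin without heat shock. The same RPKM sum gave 294 and 832 in chromatin, and 3334 and 169, and 3469 and 101 between fractions. The median at 0 gave 73 lower in cytoplasm, and 546 and 893, and 392 and 781 between fractions, and leaving out the 10 highest genes 680 and 885, and 1170 and 579. The other 20 counts moved by less than 1.5 times. The cause was not tested. Depth limits both genes: with 46 to 167 reads a library, the interval of Mt2 after against without heat shock in chromatin ran from 0.818-fold to 1.76-fold.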
